A study of Mus musculus with 15 samples.

Results

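The genes described here encode carriers that move amino acids, small peptides and some related molecules across membranes of intestinal cells. They were taken by symbol: every gene of the deposited count table whose name starts with Slc1a, Slc3a, Slc6a, Slc7a, Slc15a, Slc36a, Slc38a or Slc43a. This gave 49 of 17185 genes: 5 of the Slc1 family, 2 of Slc3, 12 of Slc6, 11 of Slc7, 4 of Slc15, 2 of Slc36, 10 of Slc38 and 3 of Slc43. A name is no proof of function. Slc7a6os is named for lying beside Slc7a6 on the opposite strand and is not known as a carrier, Slc43a3 is known for nucleobase transport, and Slc6a4, Slc6a6 and Slc6a8 carry serotonin, taurine and creatine.

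The study sequenced single cells of the mouse intestine with Seq-Well, a method that isolates cells in small wells, using a version with second strand synthesis. High fat diet mice (3 animals, 60% of kcal from fat) were set against control diet mice (2 animals, 10% of kcal from fat), and each animal gave a library of proximal small intestine, of distal small intestine and of colon, 15 in all. All mice were 6 months old and carried Lgr5-eGFP-IRES-CreERT2, an allele that places a green fluorescent protein and a Cre recombinase at the stem cell gene Lgr5. This allele is known to be silent in a part of the stem cells. The deposited table calls each of 18919 cells stem or not stem. In all of them the call equalled at least 1 molecule (UMI) of Lgr5 or eGFP, so it can miss stem cells of low depth.

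Dietary protein reaches the gut lining as amino acids and short peptides. On the side of the enterocyte facing the lumen, Slc15a1 takes up di- and tripeptides, Slc6a19 neutral amino acids, Slc6a20a imino acids such as proline, Slc1a1 glutamate and aspartate, and the pair of Slc3a1 with Slc7a9 cystine and basic amino acids. On the blood side, Slc7a7 and Slc7a8, as partners of the heavy subunit Slc3a2, and Slc43a2 pass amino acids on. Carriers such as Slc1a5, Slc7a1, Slc7a5, Slc38a1 and Slc38a2 supply dividing cells in many tissues with glutamine, arginine and large neutral amino acids.

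Counts were summed per mouse and organ over the 4618 stem-called cells and over the 14301 other cells, which gave 30 sums of 321496 to 28652200 UMIs. Levels are given as CPM, the counts of a gene scaled to the total UMIs of its sum. They are not divided by gene length and are used here to compare samples. A ranking of genes or families by them is a ranking of counted UMIs only. Values per mouse are given for high fat diet mice 1, 2 and 3 and then control diet mice 1 and 2. In a sum over mixed cells, fewer cells of a type and less RNA per cell cannot be told apart. Summed over 6 further stem cell genes (Olfm4, Ascl2, Smoc2, Rgmb, Axin2 and Slc12a2), the level was 7339 to 11113 CPM in stem-called and 1316 to 3827 CPM in other cells of the small intestine. In the colon it was 3018 to 4034 CPM in stem-called and 830 to 1686 CPM in other cells, and 1 of the 6 was at 0. Ileal enterocyte genes (Fabp6, Slc10a2) summed to 0.791 to 1.47 CPM in other cells of the proximal and to 93.7 to 883 CPM in those of the distal small intestine. Depth differed between animals: by median UMIs per cell, high fat diet mouse 3 and control diet mouse 2 were the deepest of their diet in each organ. The colon stem-called cells of high fat diet mouse 2 numbered 27, and 216 of 470 and 96 of 297 other colon cells of high fat diet mice 1 and 2 carried immune cell genes. Of 18898 distinct barcodes, 16 occurred in more than 1 library.

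The 5 members with most UMIs in total were Slc38a2 (46639 UMIs), Slc6a6 (46623), Slc38a1 (39473), Slc7a1 (34666) and Slc38a10 (32307), and each was seen in all 15 libraries. Slc38a2, a sodium-coupled carrier of small neutral amino acids, ranged from 118 to 273 CPM over the 30 sums. At the other end, Slc6a17, Slc38a5 and Slc38a3 had 3, 6 and 7 UMIs in all and were seen in 1 or 2 libraries. Of the carriers best known for absorption, Slc15a1, the peptide carrier PepT1, had 1448 UMIs in 439 cells and Slc6a19, the neutral amino acid carrier B0AT1, 1988 in 735 cells. Rarely seen genes look removed per library before deposit, so a gene at 0 is only listed at 0.

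**Figure D1:**
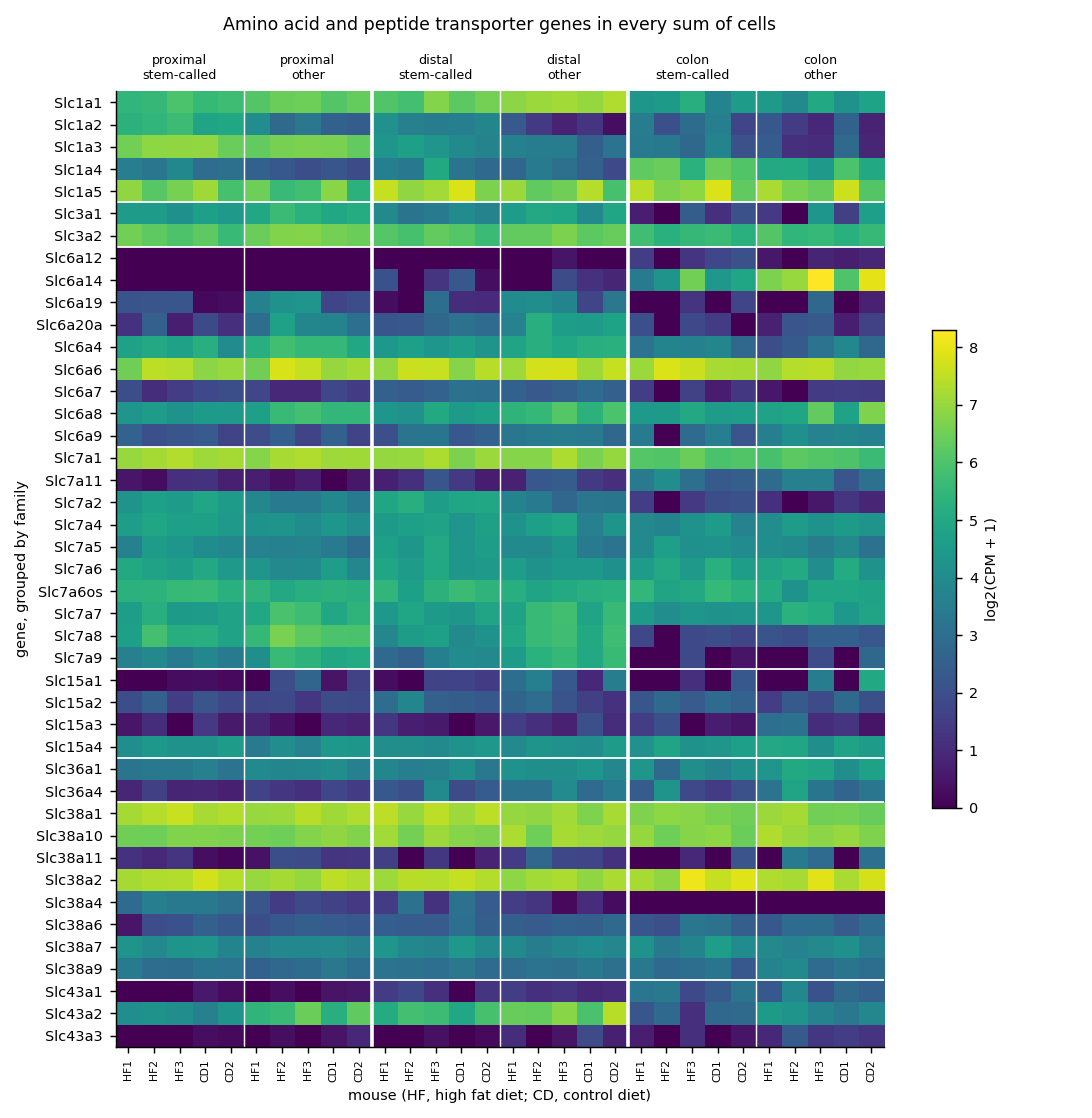
Level of the 43 members tested for the stem call in the 30 sums, as log2(CPM + 1), with genes grouped by family and, within each organ and cell group, high fat diet mice left of control diet mice. Blocks of rows that change colour between colon and small intestine (Slc7a9, Slc7a8, Slc1a4) are easier to see than any change between diets.

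By family, the Slc7 genes summed to 200 ± 7.31 CPM in colon stem-called cells of high fat diet mice (SD, n = 3) and 198 ± 19.5 CPM in those of control diet mice (SD, n = 2). They summed to 357 ± 41.4 and 341 ± 24.5 CPM in those of the proximal small intestine. The Slc38 genes were the highest family in stem-called cells of each organ, at 453 ± 43.1 CPM in the proximal small intestine, 472 ± 41.5 CPM in the distal small intestine and 427 ± 91.6 CPM in the colon of high fat diet mice. In control diet mice they stood at 481 ± 33.4, 477 ± 4.56 and 442 ± 4.34 CPM. The Slc15 and Slc36 families stayed at or below 30.2 CPM on average in stem-called cells.

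Between organs, more members were called for the colon against the small intestine than within the small intestine. Slc7a9, Slc7a8, Slc43a2, Slc7a2 and Slc7a1 were among those called lower in the colon, and Slc6a14, Slc1a4, Slc7a11 and Slc43a1 among those called higher, in both cell groups. In stem-called cells, 20 of the 39 members that passed the filter on low counts were called (51.3%), 5 higher and 15 lower in the colon, against 18% of the 12339 genes tested. In other cells 23 of 43 were called (53.5%), 9 higher and 14 lower, against 28.9% of 14307 genes. A call is an adjusted p under 0.05 in edgeR's quasi-likelihood test with Benjamini-Hochberg adjustment over all genes tested. The median log2 change of the members tested was -0.21 in stem-called and 0.06 in other cells, against 0.00 and -0.01 over all genes. Of the called members, 16 were shared by both cell groups, all with 1 sign. Under every alternative, 15 of the 20 and 16 of the 23 were called. These counts were not made over all genes. The cell groups come from shared libraries, so their counts are not independent.

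In stem-called cells both subunits of the cystine carrier were lower in the colon. Slc7a9, the light subunit, was listed at 0 in the colon stem-called cells of high fat diet mice 1 and 2 and control diet mouse 1. It had 2.55 and 0.390 CPM in high fat diet mouse 3 and control diet mouse 2, against 4.98 to 14.9 CPM (median 11.1) over the 10 sums of small intestine. All 5 colon sums lay below all 10 small intestine sums, with a log2 change of -4.15 ± 0.53 (SE; edgeR adjusted p = 4.0e-05). In other cells the change was -3.95 ± 0.69 (adjusted p = 9.2e-04). Slc3a1, the heavy subunit that brings Slc7a9 to the membrane, had 0.613, 0, 4.40, 1.18 and 3.12 CPM in colon stem-called cells, against 8.09 to 24.9 CPM in the small intestine, a log2 change of -2.69 ± 0.35 (edgeR adjusted p = 4.6e-05). In other cells its colon values spread widely, at 1.60, 0, 19.7, 1.98 and 25.0 CPM, and the change of -1.42 ± 0.62 was not called (edgeR adjusted p = 0.109). With the mouse as a block it was called, at -1.71 (adjusted p = 0.0276). The high pair of colon values belonged to the deeply sequenced mice. Colonocyte genes (Car1, Car4, Aqp8, Slc26a3 and Krt20, none at 0) also spread widely there, with sums of 80.7 to 2976 CPM in high fat diet mice and 473 to 4803 CPM in control diet mice, and their part in the Slc3a1 values was not tested.

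The start of Slc3a1 is shown because the gene was lower in colon stem-called cells together with its partner. The 270 bases run from 250 before to 20 after the RefSeq start, at chr17:85028097-85028366 on the plus strand of GRCm38.p6, and capitals mark CAAAGTCCA, a motif of the enterocyte regulator HNF4A, which starts 39 bases before the start of transcription.
Slc3a1: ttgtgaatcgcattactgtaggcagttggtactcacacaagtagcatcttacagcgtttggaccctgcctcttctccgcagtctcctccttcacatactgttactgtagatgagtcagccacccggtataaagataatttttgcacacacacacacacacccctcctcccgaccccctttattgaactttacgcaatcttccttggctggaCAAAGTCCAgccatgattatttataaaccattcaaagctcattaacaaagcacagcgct
Of 32851 RefSeq windows from 250 before to 50 after a start, 0.475% held this motif on either strand, and Slc3a1 was the 1 member with it among the 37 that matched a window by symbol. A match is a run of letters and not a site shown to be used.

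Slc7a8, Slc43a2 and Slc1a1 were lower in the colon too. Slc7a8, the light subunit LAT2 of the blood side, had 2.45, 0, 2.55, 2.96 and 2.34 CPM in colon stem-called cells, against 13.3 to 57.2 CPM (median 25.1) in the small intestine. Its log2 change was -3.39 ± 0.32 in stem-called and -3.70 ± 0.26 in other cells (edgeR adjusted p = 2.1e-06 and 6.9e-07), with no overlap of the organs in either. Slc43a2, the carrier LAT4 that lets branched-chain and aromatic amino acids out, had 3.68, 6.22, 1.16, 5.91 and 6.24 CPM in colon stem-called cells, against 11.3 to 58.7 CPM in the small intestine (log2 change -2.89 ± 0.33, edgeR adjusted p = 1.1e-05). In other colon cells Slc43a2 had 21.8, 18.8, 12.1, 8.97 and 13.2 CPM, against 35.6 to 170 CPM in the small intestine. The 429 immune-marked colon cells held Slc43a2 at 59.2 CPM, against 10.1 CPM in the rest of the colon cells. Slc1a1, the glutamate carrier EAAT3, had 20.2, 21.8, 35.9, 12.4 and 23.0 CPM in colon stem-called cells, against 43.4 to 108 CPM in the small intestine, a log2 change of -1.52 ± 0.22 (edgeR adjusted p = 1.1e-04).

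Of the carriers of arginine and lysine, Slc7a2 and Slc7a1 were lower in the colon, Slc6a14 was higher and Slc7a6 and Slc7a7 were not called. Slc7a2, known as CAT2, had 1.84, 0, 1.62, 2.96 and 3.12 CPM in colon stem-called cells, against 18.5 to 35.5 CPM in the small intestine (log2 change -3.60 ± 0.24, edgeR adjusted p = 3.6e-08). Slc7a1, known as CAT1, had 68.1, 65.3, 86.1, 59.7 and 65.5 CPM, against 101 to 162 CPM (log2 change -0.99 ± 0.12, edgeR adjusted p = 2.1e-05). The heavy subunit Slc3a2 was lower by less, with log2 changes of -0.58 ± 0.15 in stem-called and -0.94 ± 0.13 in other cells (edgeR adjusted p = 0.0155 and 1.6e-04), and the organs overlapped in stem-called cells. Leaving out high fat diet mouse 2 or 3 ended its call in stem-called cells (adjusted p = 0.0602 and 0.0667). Slc6a4, the serotonin carrier of the gut lining, fell in the colon by log2 changes of -1.31 ± 0.26 in stem-called and -2.43 ± 0.26 in other cells (edgeR adjusted p = 0.00177 and 2.3e-05). Slc38a4, a carrier of small neutral amino acids, was listed at 0 in every colon sum and had 1.33 to 10.6 CPM in stem-called cells of the small intestine. It was called in stem-called and other cells (edgeR adjusted p = 3.9e-04 and 0.0028), and no fold is given. Slc38a1, a glutamine carrier, changed by -0.68 ± 0.12 in stem-called and -0.42 ± 0.14 in other cells (edgeR adjusted p = 6.4e-04 and 0.0359). Its call in other cells was lost without high fat diet mouse 1 or 3 or without either control diet mouse (adjusted p 0.0665 to 0.303).

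The glutamate carriers Slc1a3 and Slc1a2 were called lower in colon stem-called cells as well. Slc1a3 had 9.81, 9.33, 5.79, 12.4 and 3.12 CPM in colon stem-called cells, against 12.0 to 124 CPM (median 53.8) in the small intestine, where its proximal and distal levels lie far apart. Its log2 change was -2.53 ± 0.26 in stem-called and -3.48 ± 0.42 in other cells (edgeR adjusted p = 5.1e-06 and 6.0e-05). Slc1a2 was lower in stem-called cells, by -1.69 ± 0.28 (edgeR adjusted p = 4.4e-04), and not called in other cells (-0.31 ± 0.59, adjusted p = 0.757). Slc7a4, an orphan relative of the cationic carriers, and Slc6a7, known as a brain proline carrier, changed by -0.59 ± 0.17 and -1.38 ± 0.40 in stem-called cells (edgeR adjusted p = 0.0264 and 0.0254). Each of these calls was lost without 4 of the 5 mice taken singly, Slc7a4 in all cases but control diet mouse 1 (adjusted p 0.0756 to 0.281) and Slc6a7 in all but high fat diet mouse 2 (0.0841 to 0.164). Slc7a6os lies beside Slc7a6 on the opposite strand, and their annotated spans do not overlap (chr8:106200717-106210935 and chr8:106168857-106198706). Neither the annotation nor the use of strand in counting is given, so the values of Slc7a6os remain uncertain. It changed by -0.41 ± 0.13 in other cells (edgeR adjusted p = 0.0283), a call lost without high fat diet mouse 3 (0.0873), control diet mouse 1 (0.145) or control diet mouse 2 (0.172).

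In other cells, Slc6a20a and Slc6a19, uptake carriers of imino and neutral acids, were lower in the colon, and neither was called in stem-called cells (edgeR adjusted p = 0.188 and 0.958). Slc6a20a had 0.688, 3.53, 3.97, 0.608 and 2.01 CPM in other colon cells, against 6.99 to 37.0 CPM in the small intestine, a log2 change of -3.13 ± 0.50 (edgeR adjusted p = 5.5e-04). Slc6a19 was listed at 0 in other colon cells of high fat diet mice 1 and 2 and control diet mouse 1. It had 5.83 and 0.713 CPM in high fat diet mouse 3 and control diet mouse 2, against 2.30 to 18.9 CPM in the small intestine (log2 change -2.83 ± 0.74, edgeR adjusted p = 0.012). That call was lost without high fat diet mouse 2 (adjusted p = 0.0622), control diet mouse 1 (0.0541) or control diet mouse 2 (0.0641, with a log2 change of -5.16). Slc15a1 was listed at 0 in other colon cells of 3 mice. It had 10.2 and 31.6 CPM in high fat diet mouse 3 and control diet mouse 2, against 0 to 11.0 CPM in the small intestine, and it was not called (log2 change 1.22 ± 1.02, edgeR adjusted p = 0.415).

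The members higher in the colon were led by Slc6a14, the carrier ATB0,+ for neutral and basic amino acids. In other colon cells Slc6a14 had 99.5, 130, 314, 64.0 and 246 CPM and in colon stem-called cells 9.81, 18.7, 91.9, 20.7 and 29.3 CPM, against at most 2.75 and 3.85 CPM in the small intestine, where every proximal sum was listed at 0. It was called in other and in stem-called cells (edgeR adjusted p = 1.0e-05 and 3.3e-05), and no fold is given because the proximal group is at 0. Immune-marked colon cells held it at 1.23 CPM, against 204 CPM in the rest. Slc1a4, the alanine, serine and cysteine carrier ASCT1, had 76.0, 84.0, 38.0, 84.0 and 65.2 CPM in colon stem-called cells, against 6.14 to 31.9 CPM (median 8.98) in the small intestine, a log2 change of 2.74 ± 0.27 (edgeR adjusted p = 2.6e-06). In other cells Slc1a4 changed by 3.03 ± 0.22 (edgeR adjusted p = 9.1e-07), and the colon lay above the small intestine in every sum of both cell groups. Slc43a1, the large neutral amino acid carrier LAT3, was low everywhere, but its colon sums lay above all small intestine sums. In colon stem-called cells it had 8.59, 9.33, 2.55, 4.14 and 8.19 CPM, against 0 to 2.49 CPM (log2 change 4.09 ± 0.60, edgeR adjusted p = 2.7e-04). The proximal stem-called sums of all 3 high fat diet mice were at 0, so the size of this change is uncertain. Slc6a12, known for betaine and GABA, was listed at 0 in every small intestine sum but 1 and had 0 to 3.12 CPM in the colon; edgeR called it in both cell groups and DESeq2 in neither (adjusted p = 0.264 in stem-called and 0.091 in other cells).

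A further 4 members were higher in other colon cells alone by these tests, which is no test of a difference between cell groups. Slc6a9, the glycine carrier GlyT1, had 11.0, 17.1, 11.8, 12.9 and 11.5 CPM in other colon cells, against 2.23 to 10.4 CPM in the small intestine, and it was called (edgeR adjusted p = 0.00264) with no overlap of the organs. Slc36a4, Slc36a1 and Slc15a4 changed by 1.27 ± 0.34, 0.64 ± 0.18 and 0.52 ± 0.18 (edgeR adjusted p = 0.0141, 0.016 and 0.0449). None of these 3 calls held without each mouse in turn. Slc36a4 was lost without high fat diet mouse 2 (0.81, adjusted p = 0.0935), control diet mouse 1 (0.0523) or control diet mouse 2 (0.168), and Slc36a1 without high fat diet mouse 2 (0.0914), high fat diet mouse 3 (0.0786) or control diet mouse 2 (0.30, adjusted p = 0.331). The Slc15a4 call was lost without high fat diet mouse 1 or 2 or either control diet mouse (adjusted p 0.0793 to 0.229). Immune-marked colon cells held Slc15a4 at 79.5 CPM and Slc36a4 at 21.0 CPM, against 19.7 and 7.28 CPM in the rest, and without them Slc15a4 was not called (0.28, adjusted p = 0.222).

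Other members did not pass this test in either cell group. With the mouse as a block, Slc1a5 and the blood-side carrier Slc7a7 were called in other cells, at 0.48 and -0.60 (adjusted p = 0.00118 and 2.9e-04). Without that block, Slc7a7 changed by -0.60 ± 0.26 (edgeR adjusted p = 0.0984). Slc1a5 changed by 0.19 ± 0.28 in stem-called and 0.48 ± 0.33 in other cells (edgeR adjusted p = 0.758 and 0.314), Slc6a6 by 0.17 ± 0.19 and -0.25 ± 0.22 (0.679 and 0.436), and Slc38a2 by 0.22 ± 0.16 and 0.34 ± 0.15 (0.438 and 0.117). Slc7a5, the light subunit LAT1, had log2 changes of -0.25 ± 0.19 and 0.14 ± 0.18 (edgeR adjusted p = 0.438 and 0.625). The lysosomal carriers Slc38a7 and Slc38a9, of which Slc38a9 reports arginine to mTORC1, lay between -0.22 and 0.28.

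Slc7a11, the cystine and glutamate exchanger xCT, had 9.81, 15.6, 7.41, 4.14 and 4.68 CPM in colon stem-called cells, against 0.222 to 3.68 CPM (median 0.944) in the small intestine, a log2 change of 2.64 ± 0.49 (edgeR adjusted p = 0.001). With the stem call made again after thinning each cell to 3000 UMIs, Slc7a11 was no longer among the members called in stem-called cells. In other cells Slc7a11 changed by 3.10 ± 0.51 (edgeR adjusted p = 5.8e-04), a call that held under every alternative. Slc7a11 and Slc1a4 are both known targets of ATF4, the transcription factor of the response to amino acid shortage, and their starts are shown because both genes rose in the colon. Picked for that rise, they do not stand for ATF4 targets at large. Of the amino acid response genes tested, 3 were higher and 4 lower in colon stem-called cells, and 6 higher and 4 lower in other cells. The sequences run from 250 before to 20 after the RefSeq start on the minus strand of GRCm38.p6, at chr3:50443594-50443863 for Slc7a11 and chr11:20332694-20332963 for Slc1a4. Capitals mark TGATGNAA or its reverse complement, a motif bound by ATF4 with its partners.
Slc7a11: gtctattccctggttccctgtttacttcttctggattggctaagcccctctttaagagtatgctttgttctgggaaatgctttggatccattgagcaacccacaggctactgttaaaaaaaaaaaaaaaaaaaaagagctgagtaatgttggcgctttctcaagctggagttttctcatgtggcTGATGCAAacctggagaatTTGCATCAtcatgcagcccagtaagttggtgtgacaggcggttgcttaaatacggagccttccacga
Slc1a4: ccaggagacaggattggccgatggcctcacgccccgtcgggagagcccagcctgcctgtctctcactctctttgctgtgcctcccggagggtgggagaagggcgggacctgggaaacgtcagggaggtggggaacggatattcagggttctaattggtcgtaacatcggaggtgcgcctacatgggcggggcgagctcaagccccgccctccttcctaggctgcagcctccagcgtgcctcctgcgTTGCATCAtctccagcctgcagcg
Slc7a11 held 2 matches, 66 and 47 bases before the start, and Slc1a4 held 1, which begins 4 bases before the start and runs across it. The motif was found in 3 of the 37 members with a window, the third being Slc7a7, and in 3.97% of all windows on either strand. Slc7a7 did not rise in the colon. With the mouse as a block it was called lower in other cells, at -0.60 (edgeR adjusted p = 2.9e-04), and without that block it was not called. Also searched were AGATAA of GATA factors (11.2% of windows and 5 members: Slc15a2, Slc38a4, Slc3a1, Slc7a7 and Slc7a9) and TTTATGG of CDX2 (2.75% of windows and 1 member, Slc7a15), and the capitals mark no base of these.

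**Figure D2:**
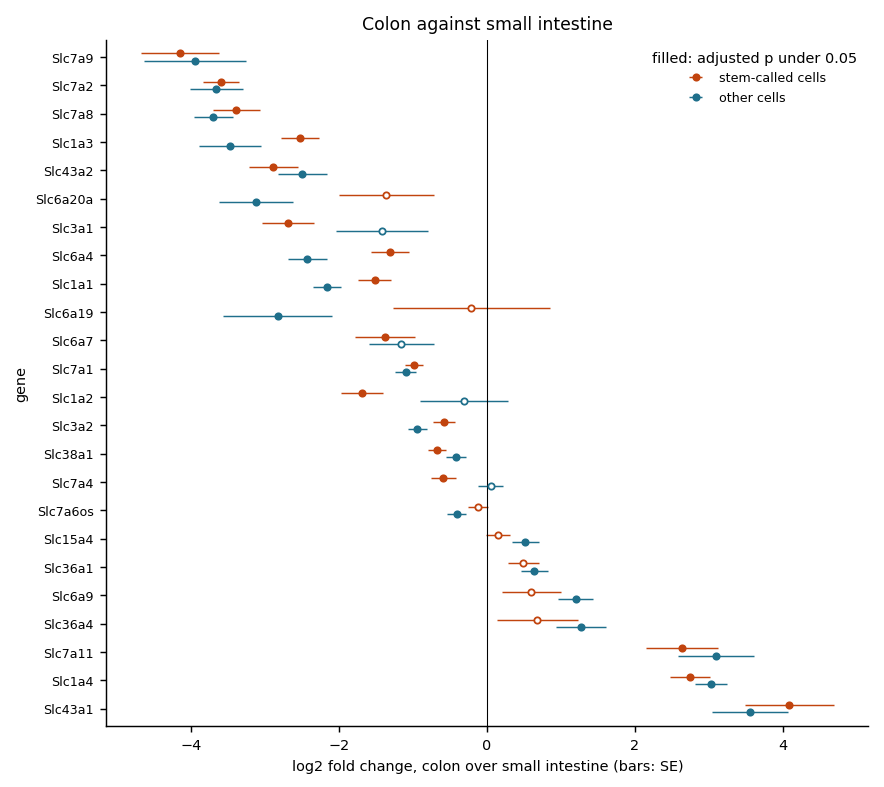
Log2 change, colon over small intestine, of the members called in either cell group, the lowest at the top, with bars of 1 SE and filled points for an adjusted p under 0.05. Members listed at 0 throughout the colon or the proximal small intestine (Slc38a4, Slc6a14, Slc6a12) are left out. Slc7a9 at -4.15 and Slc43a1 at 4.09 in stem-called cells mark the ends. The size of the Slc43a1 value is uncertain, as its proximal stem-called sums of high fat diet mice were at 0.

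Genes that work with these carriers were read from lists chosen with earlier results of these data known. Of all genes tested, 18% were called for the colon against the small intestine in stem-called and 28.9% in other cells. Of 14 symbols listed for peptidases and transporter partners of the brush border, 11 passed the filter in stem-called cells. In these 7 were lower and 1 higher in the colon (median log2 change -1.63, against 0.00 over all genes). In other cells 8 were lower and 2 higher of 12 (median -2.03). Cltrn and Tmem27 in that list are names of the same gene. Anpep, the aminopeptidase N that binds Slc6a19, changed by -3.72 ± 0.51 in stem-called and -4.56 ± 0.40 in other cells (edgeR adjusted p = 7.2e-05 and 3.8e-06). Enpep, Naaladl1, Xpnpep2, Mme and Dpp4 were called lower in both cell groups as well. Dpep1, a dipeptidase, went the other way, with 2.06 ± 0.42 and 1.94 ± 0.45 (edgeR adjusted p = 0.00212 and 0.00645). Of 20 genes of the amino acid response, 3 were higher and 4 lower of 18 tested in stem-called cells (median 0.07) and 6 higher and 4 lower of 20 in other cells (median 0.01). Phgdh, the first enzyme of serine synthesis, was among the higher ones (1.07 ± 0.18 and 1.00 ± 0.14, edgeR adjusted p = 4.3e-04 and 2.0e-04). Aldh18a1, of proline synthesis, was among the lower ones (-1.70 ± 0.11 and -1.99 ± 0.16, adjusted p = 3.5e-08 and 1.8e-06). Of 21 genes by which mTORC1 senses amino acids, 18 passed the filter in each cell group. Of these 1, Sesn3, was higher and 2, Rragd and Sesn1, lower in both (medians 0.04 and 0.01). This share lies below that of all genes in each cell group. Of 9 cytosolic peptidases, 1 was higher and 3 lower in stem-called and 0 higher and 4 lower in other cells. Of 9 symbols listed for amino acid carriers of other families, 8 were tested and 2 were lower in both cell groups. Slc66a1 and Pqlc2 in that list are names of the same gene. They were Slc16a10, an aromatic amino acid carrier (-1.89 ± 0.22 and -2.36 ± 0.16, edgeR adjusted p = 1.5e-05 and 4.7e-07), and Slc25a15, the ornithine carrier of mitochondria (-1.64 ± 0.11 and -2.05 ± 0.10, adjusted p = 4.1e-08 and 4.4e-08).

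Within the small intestine fewer members differed. In stem-called cells 7 of 39 were called (17.9%), 3 higher and 4 lower in the proximal part, against 5.46% of all genes, and in other cells 7 of 43 (16.3%), 2 higher and 5 lower, against 6.32%. The organs come from the same animals, and with the mouse as a block the test called 13 members in each cell group. Over all genes that block called 1336 of 12339 in stem-called and 2071 of 14307 in other cells, also more than without it. Slc1a3, the glutamate carrier GLAST, stood out in both. It had 92.3, 117, 119, 124 and 82.7 CPM in proximal stem-called cells, against 19.2, 24.9, 19.0, 14.3 and 12.0 CPM in distal ones, a log2 change of 2.68 ± 0.24 (edgeR adjusted p = 6.6e-06). In other cells it had 78.7, 96.3, 99.8, 98.6 and 78.3 CPM in the proximal part and 11.6, 10.3, 10.2, 4.71 and 7.93 CPM in the distal part, with a log2 change of 3.46 ± 0.40 (edgeR adjusted p = 3.4e-04). The parts did not overlap in either cell group, and all colon values of Slc1a3 were below all proximal ones.

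Slc1a2, the glutamate carrier GLT-1, was also higher in the proximal part, with 39.1, 42.8, 50.8, 27.5 and 30.8 CPM in stem-called cells, against 17.2, 11.2, 10.5, 11.0 and 13.1 CPM in distal ones (log2 change 1.49 ± 0.26, edgeR adjusted p = 0.00215). In other cells the change of Slc1a2 was 2.55 ± 0.68 (edgeR adjusted p = 0.0446) and lost its call without any 1 of the 5 mice (adjusted p 0.0555 to 0.229). Slc1a1, the glutamate carrier of the lumen side, went the other way. In other cells it had 66.6, 86.1, 87.3, 66.3 and 79.8 CPM in the proximal part, against 116, 131, 141, 127 and 158 CPM in the distal part. The log2 change was -0.80 ± 0.19 (edgeR adjusted p = 0.0277), a call lost without any 1 of the mice (adjusted p 0.0542 to 0.131). With the mouse as a block Slc1a1 was called in both cell groups, at -0.68 in stem-called and -0.80 in other cells (adjusted p = 4.3e-04 and 0.00273).

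Slc43a2 was lower in the proximal part of the small intestine, with 15.9, 17.7, 16.2, 11.3 and 18.7 CPM in proximal stem-called cells, against 33.6, 56.0, 51.0, 29.7 and 58.7 CPM in distal ones (log2 change -1.55 ± 0.26, edgeR adjusted p = 0.00165). Slc36a4, a high-affinity carrier of proline and tryptophan, was lower in both cell groups, with log2 changes of -2.45 ± 0.57 and -2.33 ± 0.42 (edgeR adjusted p = 0.0184 and 0.00569). Its call in stem-called cells was lost without high fat diet mouse 3 (-1.78, adjusted p = 0.135) or without control diet mouse 1 or 2 (adjusted p = 0.093 and 0.344), and in other cells without control diet mouse 1 or 2 (adjusted p = 0.0629 and 0.116). Slc43a1 was lower in the proximal part as well, but at no more than 0.485 CPM there and 2.49 CPM in the distal part. In proximal stem-called cells it was listed at 0 in all 3 high fat diet mice, so the size of its log2 change there is uncertain. Without control diet mouse 2 its log2 change in stem-called cells was -0.88 (adjusted p = 1) in place of -3.82 ± 0.93 (edgeR adjusted p = 0.03). That call was also lost without any 1 of the high fat diet mice (adjusted p 0.0874 to 0.154). In other cells the call (-2.52 ± 0.68, adjusted p = 0.0453) was lost without each mouse but high fat diet mouse 2 (0.107 to 0.29). The remaining calls were Slc7a8 higher and Slc6a7 lower in proximal stem-called cells (log2 changes 0.91 ± 0.24 and -1.38 ± 0.35, edgeR adjusted p = 0.0403 and 0.0301) and Slc6a9 and Slc7a11 lower in proximal other cells (-1.30 ± 0.29 and -2.48 ± 0.67, adjusted p = 0.0188 and 0.0457). Each of these 4 lost its call without at least 3 of the 5 mice taken singly, with adjusted p of 0.1 to 0.335 for Slc7a8, 0.106 to 0.22 for Slc6a7, 0.0601 to 0.101 for Slc6a9 and 0.187 to 0.228 for Slc7a11. Slc7a8, Slc6a9 and Slc6a7 each kept the call without 1 mouse (high fat diet mouse 1, 2 and 1), and Slc7a11 without high fat diet mouse 1 or control diet mouse 2. The carriers of absorption Slc7a9, Slc6a19, Slc15a1 and Slc6a20a were not called between the parts of the small intestine in either cell group in which they were tested. With the mouse as a block, Slc6a20a was called lower in the proximal part in both (-1.66 in stem-called and -1.02 in other cells, adjusted p = 0.0314 and 0.0251), and so was Slc1a5 (-0.73 and -0.59, adjusted p = 1.4e-04 and 0.00315). With that block, calls were also made for Slc43a2, Slc6a7 and Slc7a8 in other cells (-0.79, -1.60 and 0.64, adjusted p = 0.0295, 0.0326 and 0.0134). In stem-called cells it further called Slc3a1, Slc7a5 and Slc15a2 (0.87, -0.60 and -0.94, adjusted p = 0.0346, 0.0257 and 0.0362). Slc6a14, at 0 in the proximal part, was called by it in other cells (adjusted p = 0.0166). Of the lists, brush border genes had 2 higher and 2 lower of 11 tested in proximal stem-called cells, and 1 higher and 4 lower of 12 in other cells. Amino acid response genes had 0 higher and 4 lower of 18 in stem-called cells, and 2 and 2 of 20 in other cells. Of all genes, 5.46% and 6.32% were called in these cell groups.

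**Figure D3:**
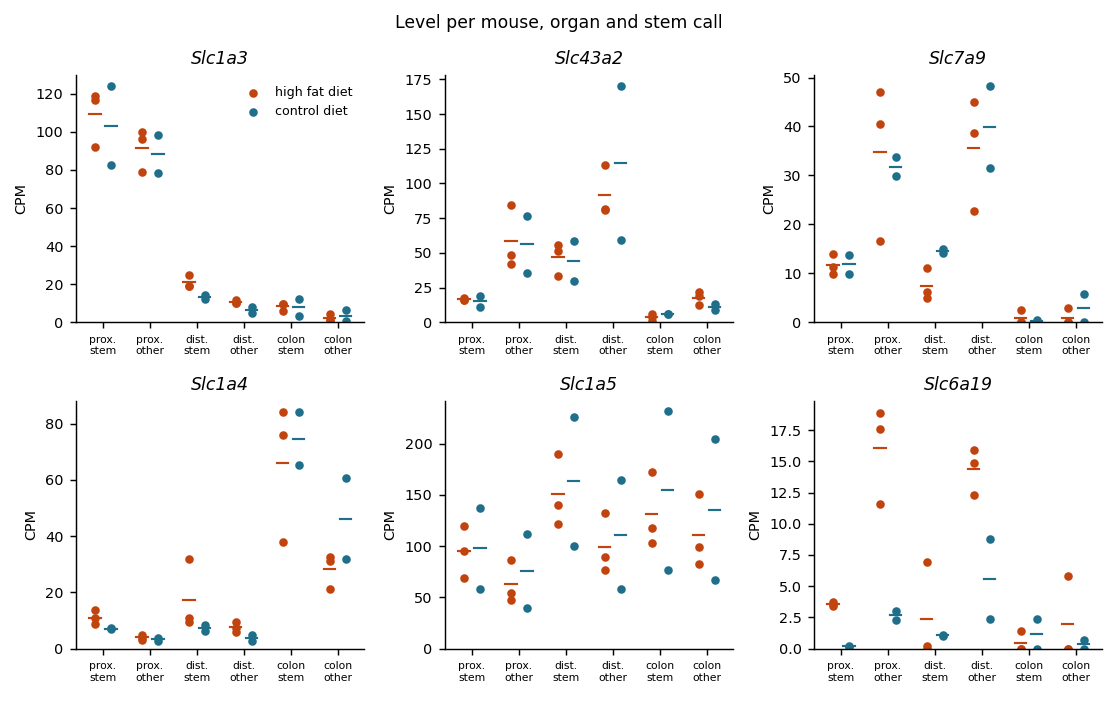
CPM of 6 members by organ (proximal, distal, colon) and cell group, with 1 point per mouse, high fat diet left of control diet, and a line at each mean. Slc1a3 is high in the proximal part, Slc7a9 is near 0 in the colon, Slc1a4 is high in the colon, and Slc1a5 is highest in control diet mouse 1 throughout.

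Stem-called cells were set against the other cells of their own library. A deeper cell is more likely to show a molecule of Lgr5 or eGFP. In the colon, the median was 18430 UMIs in stem-called and 4263.5 UMIs in other cells of high fat diet mouse 1, and 10401 and 2588 UMIs in those of high fat diet mouse 2. The proximal libraries gave medians of 6870 to 19819 UMIs in stem-called and 4498.5 to 20087 UMIs in other cells. In the proximal small intestine 24 of 43 members tested were called (55.8%), 8 higher and 16 lower, against 36.7% of 13544 genes. In the distal small intestine 28 were called (65.1%), 11 higher and 17 lower, against 44% of genes, and in the colon 21 (48.8%), 8 higher and 13 lower, against 44.1% of genes, a share near that of all genes. The median log2 change of the members was 0.00, -0.20 and -0.15, against 0.00, 0.00 and -0.01 over all genes. In all 3 organs 13 members were called with 1 sign: Slc1a2, Slc1a4, Slc1a5, Slc7a2 and Slc7a5 higher, and Slc15a1, Slc36a1, Slc36a4, Slc3a1, Slc43a2, Slc6a8, Slc7a7 and Slc7a8 lower. How many of all genes were called in all 3 organs was not counted. With the stem call made again after thinning each cell to 3000 UMIs, 23, 29 and 15 members were called in the 3 organs. The colon stem-called cells of high fat diet mouse 2 then numbered 12, under the minimum of 20, and their sum was left out. In high fat diet mice 1 and 3 and control diet mice 1 and 2 there were 25, 82, 175 and 40, in place of 79, 200, 279 and 113. The colon result after thinning thus also rests on fewer mice and cells. Over all genes this setting called 4099, 5434 and 3912, in place of 4970, 5960 and 5975. Of the 13, this ended the colon calls of Slc1a2, Slc1a5, Slc36a1, Slc7a5, Slc7a7 and Slc7a8 (edgeR adjusted p = 0.0654, 0.239, 0.151, 0.113, 0.0564 and 0.229) and the proximal call of Slc36a4 (0.128). Without high fat diet mouse 3 the colon count was 14, and without control diet mouse 2 it was 15.

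Among the lower members, Slc43a2 had 15.9, 17.7, 16.2, 11.3 and 18.7 CPM in proximal stem-called cells, against 42.3, 48.7, 84.6, 35.6 and 76.5 CPM in other cells of those libraries. Its log2 change was -1.91 ± 0.16 in the proximal part, -1.21 ± 0.14 in the distal part and -1.90 ± 0.34 in the colon (edgeR adjusted p = 5.6e-08, 2.3e-06 and 1.6e-04). Slc7a8 changed by -0.98 ± 0.08, -1.27 ± 0.09 and -0.87 ± 0.24 in these organs (edgeR adjusted p = 5.8e-08, 9.2e-09 and 0.00616), and Slc6a8, the creatine carrier, by -1.16 ± 0.17, -1.18 ± 0.17 and -1.25 ± 0.21 (adjusted p = 2.6e-05, 2.3e-05 and 1.1e-04). The colon call of Slc7a8 was lost without high fat diet mouse 3 (adjusted p = 0.085). Slc7a7, the light subunit that passes basic amino acids to the blood, fell by 0.75, 0.84 and 0.57 on the log2 scale (edgeR adjusted p = 2.7e-04, 1.4e-04 and 0.0185). The colon call was lost without high fat diet mouse 2 or 3 or control diet mouse 2 (adjusted p 0.0578 to 0.0934).

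Slc6a20a, Slc6a19, Slc7a9 and Slc1a1 were lower in stem-called cells of the small intestine. Slc6a20a had 1.29, 4.88, 0.617, 2.67 and 1.24 CPM in proximal stem-called cells, against 6.99, 25.7, 13.0, 12.4 and 7.22 CPM in other cells, a log2 change of -2.66 ± 0.29 (edgeR adjusted p = 1.1e-06). Slc6a19 changed by -2.59 ± 0.50 in the proximal and -2.44 ± 0.50 in the distal part (edgeR adjusted p = 7.4e-04 and 8.9e-04) and Slc7a9 by -1.59 ± 0.20 and -1.91 ± 0.22 (adjusted p = 1.6e-05 and 3.5e-06). Slc1a1 changed by -0.69 ± 0.09 and -0.79 ± 0.09 (edgeR adjusted p = 8.6e-06 and 1.1e-06). In the colon, log2 changes were -0.49 ± 0.53 for Slc6a20a, -0.95 ± 0.98 for Slc6a19, -1.29 ± 0.63 for Slc7a9 and -0.13 ± 0.14 for Slc1a1, and none of these 4 was called by edgeR. Slc15a1 was called in each organ, but at levels of at most 3.90 CPM in stem-called cells; its colon call was lost without control diet mouse 2 (adjusted p = 0.0624), and DESeq2 gave -1.16 (adjusted p = 0.501) there in place of -3.15. The brush border list moved with these genes, with 8 lower and 1 higher of 12 tested in the proximal part, 11 lower and 0 higher in the distal part and 6 lower and 2 higher in the colon. Enterocyte genes summed to 967 to 2633 CPM in proximal stem-called and 2618 to 4821 CPM in other cells, and their part in the carrier values was not tested.

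Of the members higher in stem-called cells, Slc1a2 had the largest log2 changes in the small intestine, 2.35 ± 0.25 in the proximal part and 3.43 ± 0.36 in the distal part, and 1.69 ± 0.46 in the colon (edgeR adjusted p = 8.7e-07, 4.8e-07 and 0.00612). In the distal part Slc1a2 had 17.2, 11.2, 10.5, 11.0 and 13.1 CPM in stem-called cells, against 3.97, 1.64, 0.745, 1.45 and 0.250 CPM in other cells, with no overlap. Its colon call was lost without high fat diet mouse 3 (1.23, adjusted p = 0.104). Slc7a2 changed by 1.05 ± 0.12, 1.72 ± 0.13 and 1.41 ± 0.37 (edgeR adjusted p = 4.4e-06, 2.2e-08 and 0.00494), and the colon call was lost without control diet mouse 2 (adjusted p = 0.0619). Slc1a4 changed by 1.33 ± 0.23, 1.24 ± 0.23 and 0.89 ± 0.19 (adjusted p = 1.5e-04, 2.4e-04 and 7.6e-04).

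The glutamine carrier Slc1a5 and the large neutral amino acid carrier Slc7a5 changed by less. Slc1a5 was higher by 0.47 ± 0.07, 0.58 ± 0.07 and 0.20 ± 0.08 on the log2 scale in the proximal part, the distal part and the colon (edgeR adjusted p = 3.9e-05, 2.3e-06 and 0.0412). By CPM it was higher in stem-called cells of 5 of 5 mice in each organ. Its colon call was lost without any 1 of the high fat diet mice (adjusted p 0.0547 to 0.315). It was also lost with RLE normalisation (edgeR adjusted p = 0.0918), no filter on low counts (0.0519), no library block (0.774) and in DESeq2 (adjusted p = 0.1). Slc7a5 was higher by 0.69 ± 0.15, 0.95 ± 0.15 and 0.49 ± 0.19 (edgeR adjusted p = 0.00131, 6.7e-05 and 0.0418), the colon call being lost without 4 of the mice taken singly (adjusted p 0.0655 to 0.208). RLE normalisation (edgeR adjusted p = 0.0569) and DESeq2 (adjusted p = 0.0597) also ended this colon call. Slc38a4 rose in stem-called cells of the proximal and distal parts (log2 changes 1.93 ± 0.35 and 2.47 ± 0.48, edgeR adjusted p = 5.4e-04 and 6.8e-04) and was listed at 0 in the colon. Slc38a1 and Slc38a2 were called in the distal part, at 0.29 ± 0.07 and 0.21 ± 0.08 (edgeR adjusted p = 0.00257 and 0.0366), and not in the others, which does not show that the organs differ. The Slc38a2 call was lost without high fat diet mouse 1 (0.0762), high fat diet mouse 2 (0.092) or control diet mouse 1 (0.13, adjusted p = 0.154). Amino acid sensing genes of mTORC1 were called lower in 7 and higher in 3 of 18 tested in the proximal part, lower in 8 and higher in 2 in the distal part and lower in 4 and higher in 2 in the colon. Of the 9 cytosolic peptidases, 6, 6 and 5 were lower and 0, 0 and 1 higher in these organs. Amino acid response genes were 6, 4 and 5 higher and 3, 5 and 6 lower of 20 tested, and carriers of other families 0, 2 and 2 higher and 2, 2 and 1 lower of 8. Of all genes 36.7%, 44% and 44.1% were called, and the sensing, response and other carrier lists lie near or below these shares in at least 1 organ.

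The remaining calls were smaller or at low levels. A value in parentheses after a mouse is the edgeR adjusted p without it. Slc7a6, the exchanger y+LAT2, was higher in the proximal and distal parts (0.62 ± 0.10 and 0.32 ± 0.10, edgeR adjusted p = 7.4e-05 and 0.0193). Its distal call was lost without high fat diet mouse 3 (0.161) or control diet mouse 2 (0.0744). Its heavy partner Slc3a2 was lower there, by -0.54 ± 0.11 and -0.43 ± 0.12 (edgeR adjusted p = 7.4e-04 and 0.00619), lost in the distal part without control diet mouse 2 (0.0506). Slc6a6 was lower by -0.23 ± 0.06 and -0.21 ± 0.06 in the proximal and distal parts (edgeR adjusted p = 0.00475 and 0.0104). The proximal call was lost without high fat diet mouse 2 (0.052) and the distal one without high fat diet mouse 3 (0.0709) or control diet mouse 1 (0.0584). Slc36a1, the proton-coupled carrier PAT1, was lower by -0.60 ± 0.13, -0.53 ± 0.13 and -0.68 ± 0.15 in proximal part, distal part and colon (adjusted p = 9.4e-04, 0.00244 and 9.6e-04). After thinning, its colon value was -0.37 (adjusted p = 0.151). Slc36a4 was lower by -0.93 ± 0.31, -0.83 ± 0.22 and -1.36 ± 0.29 (edgeR adjusted p = 0.0252, 0.00523 and 8.4e-04). Its proximal call was lost without high fat diet mouse 1 (0.0585), control diet mouse 1 (0.154) or control diet mouse 2 (0.174) and its distal one without control diet mouse 2 (0.0634).

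Called in 1 or more organs were also Slc7a4 (proximal, 0.43 ± 0.11, edgeR adjusted p = 0.00538), Slc15a2 (distal, 0.82 ± 0.21, 0.00392; without control diet mouse 2, 0.0607) and Slc38a10 (distal and colon, -0.20 ± 0.06 and -0.27 ± 0.07, 0.0165 and 0.00469). In the colon there were Slc7a6os (0.36 ± 0.11, 0.00912; without control diet mouse 1, 0.0587) and Slc6a9 (-0.91 ± 0.29, 0.0163). The distal call of Slc38a10 was lost without high fat diet mouse 3 (0.0786), control diet mouse 1 (0.0805) or control diet mouse 2 (0.12), and the colon call of Slc6a9 without high fat diet mouse 3 (0.0677) or control diet mouse 2 (0.119). Slc38a4, described above, did not exceed 10.6 CPM in any sum. Called as well, and also under 11 CPM in every sum, were Slc38a11, Slc43a3, Slc15a3 and Slc6a12. Slc38a11 was lower in the proximal part and colon, Slc43a3 in the distal part and Slc15a3 in the colon, and Slc6a12 was higher in the colon (edgeR adjusted p = 0.0271, 0.0266, 0.0235, 0.0243 and 0.0405). Each of these 5 calls was lost without at least 1 mouse. For the proximal call of Slc38a11 these were high fat diet mouse 2 (0.0708), control diet mouse 1 (0.0787) and control diet mouse 2 (0.147), and for its colon call high fat diet mouse 3 (0.24). Slc43a3 was lost without high fat diet mouse 1 (0.0763), control diet mouse 1 (0.0783) or control diet mouse 2 (0.107), Slc15a3 without high fat diet mouse 1 (0.109) or 3 (0.105), and Slc6a12 without high fat diet mouse 1 (0.0769), control diet mouse 1 (0.113) or control diet mouse 2 (0.204). Immune-marked colon cells held Slc15a3 at 27.1 CPM, against 0.763 CPM in the rest, and without them its colon value was -1.40 (adjusted p = 0.174).

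Slc6a14, first among the members higher in the colon, was lower in colon stem-called than in other colon cells in 5 of 5 mice, by a log2 change of -2.41 ± 0.29 (edgeR adjusted p = 1.5e-05). Slc1a3 was higher in colon stem-called cells by 1.55 ± 0.25 (edgeR adjusted p = 6.3e-05), with 9.81, 9.33, 5.79, 12.4 and 3.12 CPM in stem-called and 4.36, 1.18, 1.08, 6.23 and 0.842 CPM in other colon cells. This rise was not particular to the colon. Slc1a3 was also called higher in distal stem-called cells, under every alternative, with means of 17.9 CPM there and 8.94 CPM in distal other cells. In the proximal part it was not called.

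The effect of the stem call differed between colon and small intestine for 7 of 43 members (edgeR adjusted p under 0.05 for the difference), 4 with a higher and 3 with a lower value in the colon, against 6.32% of genes. This comparison was added after the data were seen. Among the 7, Slc6a4 had the largest positive difference, 1.10 ± 0.23 on the log2 scale (adjusted p = 0.00786): the stem call effect was 0.36 ± 0.21 in the colon, against -0.76 ± 0.12 and -0.72 ± 0.13 in the proximal and distal parts. Slc1a3 followed with 1.05 ± 0.26 and Slc3a1 had the largest negative difference, -1.45 ± 0.43 (adjusted p = 0.0197 and 0.0494). The small intestine value is the mean of the proximal and distal effects, and Slc1a3 was called higher in distal stem-called cells too. None of the 7 was called under every alternative. Without high fat diet mouse 3 only Slc1a5 stayed called of the 7, and without control diet mouse 2 Slc6a4 and Slc6a6 did.

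**Figure D4:**
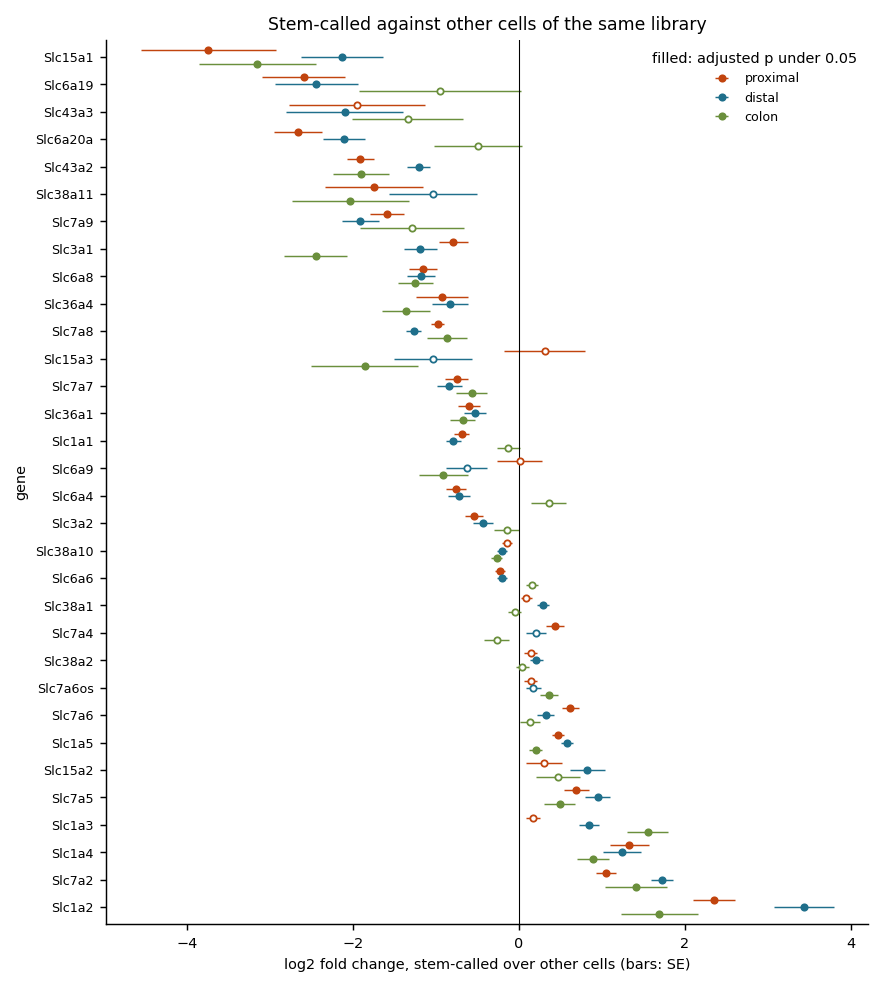
Log2 change, stem-called over other cells of each library, by organ, for the members called in at least 1 organ, the lowest at the top and without members listed at 0 throughout an organ (Slc38a4, Slc6a12, Slc6a14), with bars of 1 SE and filled points for an adjusted p under 0.05. Slc1a2, Slc7a2 and Slc1a4 lie right of 0 and Slc43a2, Slc6a8 and Slc7a8 left of 0 in all 3 organs.

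No member was called between high fat and control diet. In stem-called cells, 0 of 39 members were called in the proximal part, the distal part and the colon, against 0.122%, 0.0081% and 0% of all genes. In other cells 0 of 43 were called in each organ, against 0.0839%, 0.00699% and 0% of genes. The diet effect in the proximal part minus that in the distal part gave 0 called members in both cell groups, against 0% of genes in each. At an unadjusted p under 0.05, edgeR gave 1, 1 and 1 members in stem-called and 2, 4 and 0 in other cells of the 3 organs. Over all genes it gave 459, 330 and 314 of 12339 in stem-called and 443, 288 and 492 of 14307 in other cells. For the difference between the parts edgeR gave 1 member in each cell group, against 178 genes in stem-called and 147 in other cells. DESeq2 called 0 throughout, with 1, 1, 1, 3, 4 and 2 unadjusted, and 0 and 2 for the difference. Members' median log2 changes were 0.08, 0.00 and 0.10 in stem-called and 0.05, 0.10 and 0.01 in other cells. With 3 mice against 2 and so few calls over all genes, these counts do not show that the diets act alike.

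Among members not at 0 in all mice of a diet, the largest diet change on the log2 scale was that of Slc6a19 in the proximal small intestine. In stem-called cells it had 3.44, 3.55 and 3.70 CPM in high fat diet mice, against 0.121 and 0.219 CPM in control diet mice, and in other cells 11.6, 17.6 and 18.9 CPM in high fat diet mice, against 2.30 and 3.00 CPM in control diet mice. The diets did not overlap in either cell group. The gene was picked for its large change, and the cell groups come from shared libraries, so this adds no separate evidence. In stem-called cells the control diet values lie near 0, in sums of 8240251 and 13694552 UMIs, so the size of the log2 change there is uncertain. The log2 changes were 4.16 ± 1.34 and 2.63 ± 1.04, with unadjusted p = 0.00749 and 0.0263 in edgeR, but adjusted over all genes neither passed (adjusted p = 0.711 and 1). Within the deeper pair of mice and within the shallower ones, the log2 ratio of mean CPM was 4.08 and 4.85 in stem-called and 2.66 and 2.67 in other cells of the proximal part. In the distal part these ratios were 2.78 and -3.34 in stem-called and 0.49 and 2.71 in other cells, so the sign turned in stem-called cells. The split was added after the data were seen, and its deeper set is 1 mouse of each diet. Enterocyte genes moved with it: their sum was 1476 to 2633 CPM in stem-called cells of high fat diet mice and 967 to 1180 CPM in those of control diet mice. In other cells it was 4448 to 4821 CPM in high fat diet mice and 2618 to 3087 CPM in control diet mice, and its part in the Slc6a19 values was not tested. In distal other cells Slc6a19 had 14.9, 15.9 and 12.3 CPM in high fat diet mice, against 2.35 and 8.76 CPM in control diet mice (log2 change 1.28 ± 0.98, adjusted p = 1).

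Other members with an unadjusted p under 0.05 had adjusted p = 1 in edgeR. Slc1a4 had 10.9, 9.33 and 31.9 CPM in distal stem-called cells of high fat diet mice and 8.25 and 6.14 CPM in those of control diet mice, with log2 changes of 1.41 ± 0.50 there and 1.04 ± 0.40 in distal other cells. Slc15a2, the high-affinity peptide carrier PepT2, had 5.38, 6.79 and 3.49 CPM in distal other cells of high fat diet mice and 1.99 and 1.25 CPM in those of control diet mice (log2 change 1.65 ± 0.54). Slc7a5 and Slc7a4 had log2 changes of 0.81 ± 0.29 and 0.62 ± 0.28 in distal other cells. Slc15a4, a lysosomal carrier of histidine and peptides, had -0.65 ± 0.29 in proximal other cells and Slc43a2 -1.41 ± 0.63 in colon stem-called cells. The 5 lists of related genes held 0 genes called for the diet in either cell group of any organ (edgeR).

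Some members differed widely between mice of 1 diet. Slc1a5 had 120, 68.9 and 95.4 CPM in proximal stem-called cells of high fat diet mice and 137 and 58.3 CPM in those of control diet mice. Control diet mouse 1 was the highest and control diet mouse 2 the lowest of the 5 in all 6 pairings of organ and cell group. For Slc6a6, the taurine carrier, high fat diet mouse 1 was the lowest or next to lowest mouse in each, with 88.5 CPM in proximal other cells, against 222 and 188 CPM in the other high fat diet mice and 125 and 144 CPM in control diet mice. Diet effects on Slc1a5 and Slc6a6 lay between -0.30 and 0.36 on the log2 scale in the 6 pairings, with SEs of 0.31 to 0.54.

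**Figure D5:**
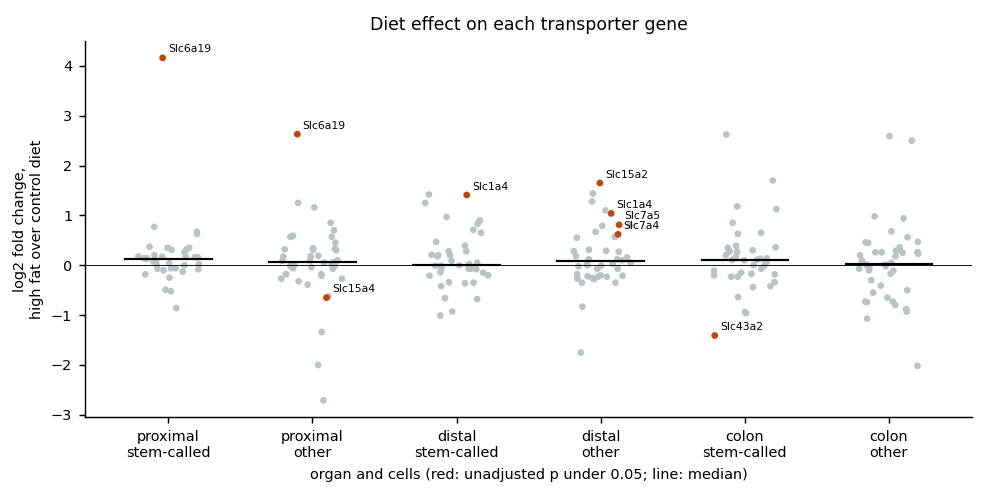
Log2 change, high fat over control diet, of each member tested in each organ and cell group, leaving out members at 0 in all mice of a diet, with red points for an unadjusted p under 0.05 and a line at the median. No point passed the test after adjustment over all genes, and Slc6a19 lies highest of the red ones at 4.16 in proximal stem-called cells.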

How the data were processed

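Seq-Well libraries of 15 samples (5 mice, 3 organs) were deposited as 1 table of raw UMI counts per gene and cell, with a cell table of total counts, mouse, organ, diet and stem call. Per the submitters' processing notes the genome build was mm10; the aligner, counting tool, annotation and the use of strand are not given in the sources used here. The authors' total count equalled the summed UMI count in all 18919 cells. Of gene and library entries, 47183 had no cell with a count, and 94, 248, 682, 1839 and 5035 had 1 to 5 cells, so rarely seen genes look removed per library. The cell table's second control diet mouse was matched to control diet mouse 2 of the titles by elimination. No further cell filter, clustering or doublet removal was made.

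Counts were summed per mouse, organ and stem call; the smallest sum held 27 cells. Tests used edgeR 4.0.16 in R 4.3.3 (quasi-likelihood F test, TMM, filterByExpr by group, Benjamini-Hochberg over all genes tested, calls under 0.05). Diet and organ effects came from a fit of 6 groups of diet and organ per cell group; the stem call was tested within libraries, with the library as a block. 12339 genes were tested in stem-called cells, 14307 in other cells and 13544 for the stem call. Organs of an animal are paired by the animal: deviations from the group means correlated between organs of a mouse with a median of 0.31 in stem-called (0.06 to 0.60) and 0.32 in other cells (0.02 to 0.48), over 15 pairs each, so the fit with a mouse block is given where it moves a count. Alternatives were RLE factors, no filter, DESeq2 1.42.0, leaving out each mouse, blocks, a depth factor (high fat diet mouse 3 and control diet mouse 2 as the deeper set), stem calls after thinning each cell to 3000 UMIs (961 shallower cells left out), and leaving out immune-marked cells (2 or more immune genes and no Epcam). Sums under 20 cells were left out, which applied to the colon stem-called cells of high fat diet mouse 2 after thinning (12 cells). The procedure was checked on simulated counts. Members called in a comparison are named, up to 10 per direction by p, with a set of transporters named throughout. Further called members and single list genes are also named, chosen after their values were seen. The members and lists were chosen with earlier results of these data known, and the motifs after the values were seen. Each mouse is 1 sample; intervals other than SD and SE are not given. Promoter sequences are from RefSeq (GRCm38.p6). Values of 1 member and 1 list gene are not reported here; both stay in the counts.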

Additional observations from a re-analysis of the deposited data

Results flagged for a closer look

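Of 125 groups of 5 mice for the members named throughout (groups with more than 1 mouse listed at 0 left out), 8 held a mouse far from the other 4, where chance gives about 1 in 20. Of these, 4 were high fat diet mouse 3: Slc6a19 in distal stem-called cells at 6.95 CPM (others 0 to 1.10), Slc1a4 in distal stem-called cells at 31.9 CPM (others 6.14 to 10.9), and Slc6a14 and Slc6a8 in colon stem-called cells at 91.9 CPM (others 9.81 to 29.3) and 31.0 CPM (others 21.5 to 24.2). High fat diet mouse 2, the mouse with 27 colon stem-called cells, had Slc7a8 at 0 there (others 2.34 to 2.96 CPM). That sum held 321496 UMIs, too few to resolve levels this low, so the 0 is no sign of a real difference. The same mouse had Slc43a1 at 13.5 CPM in other colon cells (others 3.30 to 6.23). Control diet mouse 1 had Slc1a4 at 60.6 CPM in other colon cells (others 21.1 to 32.4) and Slc38a2 at 213 CPM in proximal stem-called cells (others 145 to 164).

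The stem call effect differed between colon and small intestine, by edgeR's test of the difference itself, for 7 members. That test was added after the data were seen. The differences, colon minus small intestine on the log2 scale, were 0.61 for Slc1a1, 1.05 for Slc1a3, 1.10 for Slc6a4 and 0.38 for Slc6a6, and -0.33 for Slc1a5, -1.45 for Slc3a1 and -0.59 for Slc7a4. After the stem call was made again at 3000 UMIs per cell, 1 of the 7, Slc1a5, was still called. That setting left out the colon stem-called sum of high fat diet mouse 2.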

How the results depend on the processing

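No result reversed, and the counts of members called for colon against small intestine and for the diet stayed within 1.5 times under every alternative run. For proximal against distal small intestine, the fit with the mouse as a replicate block gave 13 members in each cell group in place of 7, and leaving out 1 mouse gave 3 to 6 in stem-called and 1 to 4 in other cells. Without the library block, that is with no replicate block, the stem call gave 15, 15 and 9 members in the proximal part, distal part and colon in place of 24, 28 and 21, and 0 in place of 7 for the difference between colon and small intestine. That difference gave 1 member after thinning and 1 to 7 without 1 mouse. Mouse numbers shared across diets are only numbers: deviations correlated with a median of 0.17 in stem-called and 0.25 in other cells, and a block on them left 0 members called for the diet. Over all genes, calls for the diet were 15 in proximal stem-called cells, against 43 by DESeq2, 49 with the block and 4 without high fat diet mouse 2, and 12 in other cells, against 58 by DESeq2 and 1 without control diet mouse 2. The stem call difference between colon and small intestine gave 856 genes, against 52 with no replicate block, and the colon stem call 5975, against 2796. Proximal against distal gave 674 and 904 genes, against 1336 and 2071 with the mouse block, and the colon 4134 in other cells, against 1999 without control diet mouse 2. The causes were not tested. The sums of 27 to 113 colon stem-called cells in 3 mice limit the precision of low genes there.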
